A study of Mus musculus with 24 samples.

Results

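Wild-type cultures that received the S1P4 agonist CYM50260 on their apical, blood-facing side (4 libraries) were compared with cultures that received vehicle (4 libraries). The members were chosen by their labelled genotype, compound and side, and are 8 of the 24 libraries of the series. The cells were primary mouse brain microvascular endothelial cells of strain C57B/6J, the cells that line the small vessels of the brain, taken from cortex and midbrain. Cells of all groups had 48 h of puromycin, were seeded on transwell inserts, and were treated 48 h after seeding for 24 h in medium with fatty-acid-free bovine albumin. The agonist was given at 500 nM. The vehicle group received the vehicle control in the same medium, and neither its side nor its solvent is stated. Each replicate stood for 12 pooled mice and each library for 3 pooled inserts, and the age and sex of the mice are not given. A further pair of groups, each of 4 wild-type libraries, is used for direct comparison, one with 500 nM of the agonist on the basal side and one with 50 nM of S1P on the apical side. The submitters describe all 3 of these treatments as tightening the barrier, and the comparison asks which transcripts differ once the agonist has acted from the blood side. A last wild-type group, 4 libraries with 50 nM of S1P on the basal side, is also among the 20 wild-type libraries used in the tests.

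Sphingosine-1-phosphate (S1P) is a lipid of blood plasma that acts through a family of G protein-coupled receptors. S1P1 couples to Gi, raises Rac activity and strengthens endothelial junctions, whereas S1P2 loosens them. S1P4, encoded by S1pr4, couples to Gi and to G12/13 and is best known from lymphocytes and other blood cells. Brain endothelium forms the blood-brain barrier with continuous tight junctions, few caveolae, efflux pumps and dedicated solute carriers.

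The values are normalized counts, whole numbers that the values show to be reads scaled library by library. Library totals were 4.50 to 4.66 M in vehicle and 4.57 to 4.69 M with apical agonist. The libraries held endothelial RNA: the 24 endothelial markers summed to 37315 to 41736 in vehicle and to 41099 to 44341 with agonist. Pericyte markers summed to 2043 to 4339 in vehicle and 2111 to 4178 with agonist, smooth muscle markers to 3196 to 4490 and 3294 to 4526, and fibroblast markers to 394 to 1721 and 326 to 1605. The pericyte genes Kcnj8 and Higd1b stood at 7 or less in all 8 libraries. Replicates differed more by list medians than by these sums. In log2 units from the vehicle mean, the pericyte median was 0.97 in vehicle replicate 1 and -2.01 in vehicle replicate 4. With agonist it was 0.96 and -1.57 in the same replicates. Smooth muscle medians there were 0.77 and -1.26 in vehicle and 0.57 and -0.67 with agonist. In bulk RNA, fewer cells of a type and less RNA per cell cannot be told apart. Lymphocyte and leukocyte markers summed to 4 to 16 per library, and Cd3e, Cd4, Cd8a and Ms4a1 are not listed in the table, so the S1pr4 signal was measured where lymphocyte markers were near 0. Xist, transcribed in female cells, ran from 1 to 2251 in vehicle and from 0 to 1382 with agonist. In both groups replicate 2 had the highest Xist, replicate 3 the next, then 4 and 1. Yet Xist in agonist replicate 2 was 1382, against 2251 in vehicle replicate 2, 2507 in basal agonist replicate 2 and 2555 in apical S1P replicate 2. In the group with S1P on the basal side, replicate 2 measured 552. Apical S1P replicates 3 and 4 (525 and 1417) also stood apart from vehicle and apical agonist libraries of the same number (1063 and 1188, then 190 and 244). In a principal component analysis of all 20 wild-type libraries, component 1 took up 43.6% of the variance. Replicate number accounted for 83.9% of that component and the 5 treatment groups for 5.95%. The apical agonist library numbered 2 scored -7.23 on it, against -25.8 in vehicle replicate 2, -25.0 in basal agonist replicate 2 and -26.0 in apical S1P replicate 2. The library numbered 2 of the basal S1P group scored 15.6. Whether the libraries numbered 2 come from one pool of mice was not tested.

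No transcript passed the test. Of 12249 genes tested with limma across the 20 wild-type libraries, 0 differed between apical agonist and vehicle at a Benjamini-Hochberg adjusted p under 0.05 (0% called), and the smallest adjusted p was 0.9999. At an unadjusted p under 0.05 there were 134 genes, 75 higher and 59 lower with agonist, which is 1.09% of those tested. With the replicate number as a block the adjusted calls were again 0, with 429 genes at an unadjusted p under 0.05 (250 higher, 179 lower) and a smallest adjusted p of 0.967. Limits can be put on the size of differences: the 95% interval of the log2 change lay inside a 2-fold change in either direction for 11219 genes (91.6%) and inside a 1.5-fold change for 9300 genes (75.9%). These intervals are not widened for the number of genes. No label ties a library to a pool of mice of its own, so what the p-values reflect is library-to-library spread. Within vehicle, Xist ran from 1 to 2251, and replicate number accounted for 83.9% of component 1. How much of the spread is technical and how much lies between pools of mice was not tested.

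Because 0 genes were called, the genes below are named by the rank of their unadjusted p, with no call implied, and each had a limma adjusted p of 0.9999. Piezo1, a cation channel opened by membrane stretch and blood flow, had the smallest p of all genes in the fit without the replicate block (0.00357). With the block its p was 0.00383, and the smallest p of any gene was 0.000601. It lies on chromosome 8 from 122481698 to 122551329 on mm10. Its normalized counts were 3012, 3014, 2897 and 3094 in vehicle and 3580, 3371, 3199 and 3197 with agonist, in replicates 1 to 4. The 4 agonist values all lay above the 4 vehicle values, and replicate 4 showed the smallest gap. The log2 change was 0.15 ± 0.05 (SE, n = 4 against 4). On the same scale the change against vehicle was 0.09 with basal agonist and 0.06 with apical S1P, which share the vehicle libraries. Piezo1 is among the 1225 genes with the highest vehicle level per exonic base (0.302 normalized counts). Of those genes 93.9% had a higher mean under agonist, as described below.

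Igfbp7, a secreted protein of the vessel wall that binds insulin-like growth factors (chromosome 5, 77349240 to 77408041), measured 660, 653, 714 and 706 in vehicle and 787, 812, 802 and 732 with agonist. These groups did not overlap either, and the log2 change was 0.20 ± 0.07 (SE). Cd200, a membrane glycoprotein that restrains myeloid cells, stood at 1167, 1148, 1252 and 1284 in vehicle and at 1385, 1429, 1375 and 1281 with agonist. Here the fourth agonist library lay inside the vehicle range, as it did for the next gene. Adgra2 (Gpr124), the co-receptor through which brain endothelium receives Wnt7, measured 2467, 2496, 2469 and 2663 in vehicle and 2841, 2971, 2718 and 2641 with agonist. Its log2 change was 0.15 ± 0.05 (SE), and that of Cd200 was 0.17 ± 0.06. Myh9, the heavy chain of non-muscle myosin, ran from 4269 to 4670 in vehicle and from 4562 to 5265 with agonist, with a log2 change of 0.17 ± 0.06. The other 3 of the 8 genes with the smallest p among those higher were of low level: the pseudogenes Gm29257 (10 to 11 in vehicle, 13 to 23 with agonist) and Impdh2-ps (7 to 17 and 18 to 23), and Jph1, a junctional membrane protein (4 to 11 and 10 to 15). Pseudogenes can share reads with their parent genes, so these levels are uncertain.

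Among the genes lower with agonist, Ptar1, which carries a prenyltransferase alpha subunit repeat, had the smallest p. It lies on chromosome 19 from 23687429 to 23731668, and measured 648, 614, 678 and 669 in vehicle and 575, 548, 566 and 630 with agonist, a log2 change of -0.17 ± 0.05 (SE). Each agonist library was below the vehicle library of its number, but the groups overlapped through agonist replicate 4. Plekha8 (FAPP2), which carries glucosylceramide between Golgi membranes, measured 279, 287, 251 and 277 in vehicle and 247, 238, 211 and 245 with agonist. Those groups were separate, and the log2 change was -0.22 ± 0.08. Rffl, a ubiquitin ligase, also had separate groups, at 112 to 123 in vehicle and 92 to 103 with agonist, as had Rnpc3, a protein of the minor spliceosome, at 105 to 128 and 93 to 98. Pus10, a pseudouridine synthase, ran from 181 to 204 in vehicle and from 157 to 184 with agonist. Lrmp, Zfp940 and the transcribed pseudogene Gm5113 completed the 8, with log2 changes of -0.98 ± 0.34, -0.62 ± 0.23 and -0.34 ± 0.12 at vehicle means of 17.8, 34.5 and 106 normalized counts. As for the pseudogenes above, the level of Gm5113 is uncertain.

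**Figure D1:**
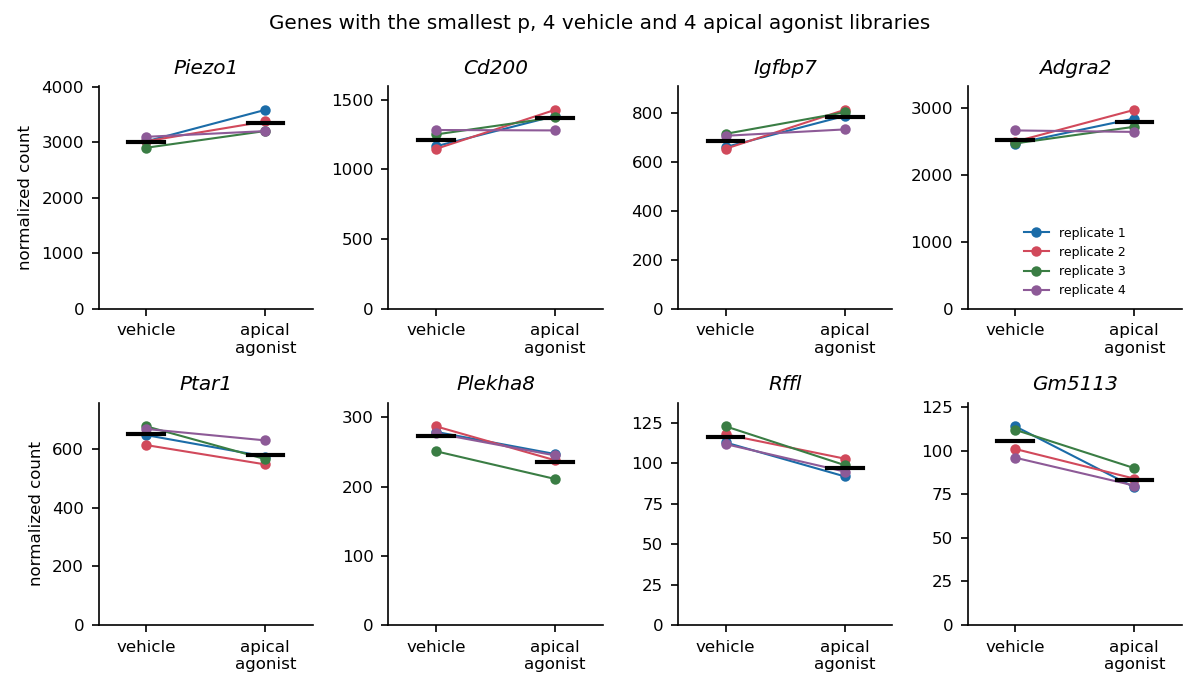
Normalized counts (y axis, from 0) of 8 of the genes with the smallest unadjusted p in 4 vehicle and 4 apical agonist libraries (x axis), with a coloured line joining libraries of the same replicate number and a black bar at each group mean. The upper row shows genes with a higher agonist mean and the lower row genes with a lower one, and in Cd200 and Adgra2 the replicate 4 line is nearly flat.

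Genes whose 4 agonist values and 4 vehicle values did not overlap numbered 41 higher (0.335% of those tested) and 42 lower (0.343%). With a mean of at least 50 over the 8 libraries, the 5 with the largest change upward were Smagp, Rps15a, Tinagl1, Igfbp7 and Nenf. Smagp, a small cell adhesion glycoprotein, measured 143 to 187 in vehicle and 189 to 197 with agonist (log2 change 0.23 ± 0.10, SE). Rps15a is a protein of the small ribosomal subunit (155 to 180 and 182 to 205), Tinagl1 a matricellular protein of basement membranes (678 to 788 and 800 to 914), and Nenf a secreted haem-binding factor (141 to 147 and 157 to 177). The 5 with the largest change downward were Ankrd42, Nmrk1, Gm5113, Alkbh4 and Epm2a. Ankrd42, an ankyrin repeat protein, stood at 53 to 72 in vehicle and 32 to 50 with agonist, with a log2 change of -0.47 ± 0.21. Nmrk1, a kinase that makes NAD from nicotinamide riboside, stood at 65 to 77 and 49 to 58, Alkbh4, a demethylase, at 75 to 84 and 55 to 72, and Epm2a, the glycogen phosphatase laforin, at 113 to 133 and 93 to 107. Agonist exceeded vehicle in all 4 pairs of one number for 936 genes (7.64%) and was below it in all 4 for 878 (7.17%).

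The direction of small differences followed how much RNA a gene had per base of its exons. Genes were placed in 10 equal groups (deciles) by vehicle level per exonic base, and the share with a higher mean under agonist was 31% in the lowest decile, 35.5% in the fifth, 51.8% in the seventh and 93.9% in the highest. The median log2 change went from -0.11 in the lowest decile to 0.09 in the highest, against -0.0042 over all 12249 genes, of which 48.5% were higher. In the highest decile the median difference was 0.11, 0.16 and 0.11 in pairs 1, 2 and 3 and -0.02 in pair 4. One sequencing read was worth 0.8288, 0.8696, 0.9524 and 1.019 normalized counts in vehicle replicates 1 to 4 and 1.017, 1.103, 1.141 and 0.9474 with agonist, so it was worth more with agonist in pairs 1, 2 and 3 and less in pair 4. The part of the library factors in this pattern was not tested. In the highest decile were 21 of 24 endothelial markers, 16 of 19 basement membrane genes and 10 of 18 adherens junction genes, but 2 of 11 efflux pumps. Piezo1, Igfbp7, Cd200 and Adgra2, named above, were in it too, at vehicle levels per exonic base of 0.302, 0.565, 0.365 and 0.437. Each gene list is given below both as deposited and after each library was centred along the level per exonic base. That centring was chosen after the data were seen. After it 0 genes were called, with 36 higher and 36 lower at an unadjusted p under 0.05. For single genes, values after centring are given mostly where the sign turned. Piezo1, Igfbp7, Cd200 and Adgra2 kept their sign.

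**Figure D2:**
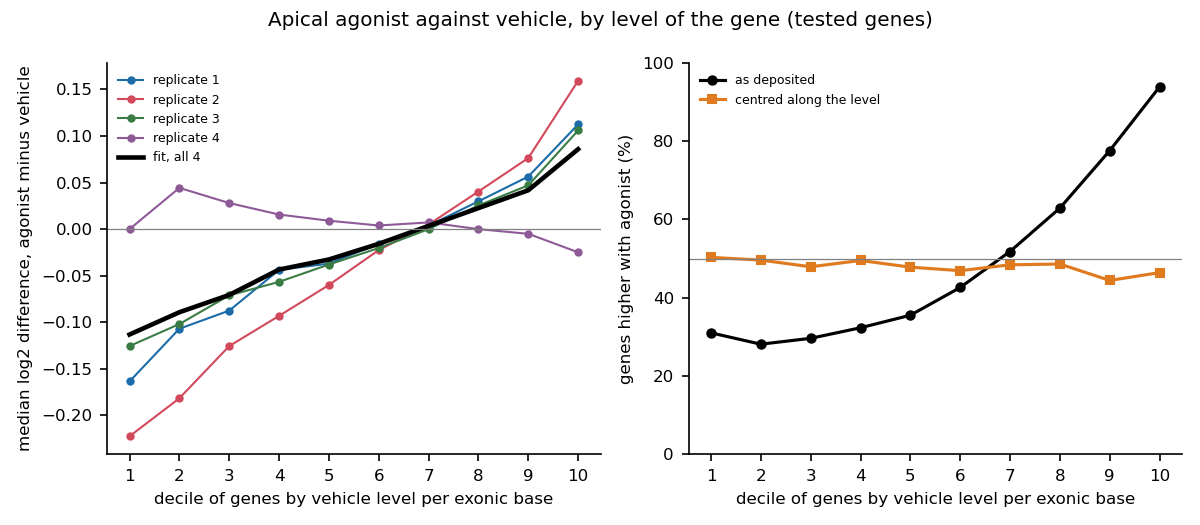
Left, median log2 difference of apical agonist minus vehicle (y axis) in each decile of the tested genes by vehicle level per exonic base (x axis, 1 lowest), for each pair of one replicate number and for the limma fit over all 4. Right, percentage of genes with a higher agonist mean in the same deciles, as deposited (31% to 93.9% from the lowest to the highest) and after centring along the level, where all deciles lie between 44.4% and 50.3%.

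S1pr4, the gene of the receptor that the agonist binds, lies on chromosome 10 from 81497747 to 81500132. It measured 128, 130, 189 and 153 normalized counts in vehicle and 133, 149, 167 and 157 with apical agonist. The groups lay over each other, and the log2 change was 0.03 ± 0.16 (SE, 95% interval -0.31 to 0.37), with a sign that changed when single replicates were left out. S1pr1, the main endothelial receptor, measured 1212, 1282, 1602 and 1675 in vehicle and 1372, 1485, 1762 and 1630 with agonist. Its log2 change was 0.12 ± 0.13, and -0.01 after centring along the level. Per exonic base the vehicle level of S1pr1 was 0.474 and that of S1pr4 0.0629 normalized counts. S1pr2 measured 75, 63, 101 and 60 in vehicle and 70, 53, 80 and 60 with agonist, a log2 change of -0.17 ± 0.20. S1pr3, a receptor also abundant in mural cells, went from 79 in the first vehicle replicate to 9 in the fourth and from 40 to 8 in the same agonist replicates, so its log2 change of -0.39 ± 0.88 had an interval wider than 2-fold both ways. S1pr5 is not listed in the table.

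Of 18 tested genes for S1P synthesis, breakdown and export, 10 were higher and 8 lower with agonist, with a median log2 change of 0.04 (0.0088 after centring). The smallest p among them belonged to Asah1, the lysosomal ceramidase that frees sphingosine (622 to 731 in vehicle, 678 to 788 with agonist), Cers5, a ceramide synthase (522 to 562 and 543 to 612), and Degs1, the desaturase that completes ceramide (577 to 676 and 623 to 752). Sphk1, one of the kinases that make S1P, was at 5 or less in all 8 libraries. Gnai2, a Gi alpha subunit, ran from 1418 to 1718 in vehicle and from 1623 to 1906 with agonist. Its groups overlapped, with a log2 change of 0.17 ± 0.09 (SE).

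No junction gene passed the test. Cldn5, the claudin that seals brain endothelial tight junctions, measured 799, 823, 867 and 984 in vehicle and 910, 909, 1017 and 944 with agonist. The agonist value was higher in 3 of 4 pairs, and the log2 change of 0.13 ± 0.08 (SE, 95% interval -0.05 to 0.30) became -0.03 after centring. Ocln, a transmembrane protein of the same junction, measured 1070, 1027, 966 and 1054 in vehicle and 1158, 1131, 1123 and 1084 with agonist. Its groups did not overlap, its log2 change was 0.13 ± 0.06, and it was the 1 such gene among 17 tight junction genes tested, where 0.335% of all genes were higher without overlap and 0.343% lower. Tjp1 (ZO-1), which ties the junction to actin, ran from 2686 to 2980 and from 2672 to 3185, with a log2 change of 0.07 ± 0.06 that became -0.05 after centring. Esam, an adhesion molecule of endothelial junctions, ran from 1132 to 1246 and from 1215 to 1364. Over the 17 genes 10 were higher as deposited and 6 after centring, with 0 called (0% of all genes).

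Cdh5 (VE-cadherin), the adhesion molecule of endothelial adherens junctions, measured 2560, 2622, 2766 and 2928 in vehicle and 2995, 3167, 3117 and 2820 with agonist. The fourth pair went the other way, and the log2 change of 0.15 ± 0.07 (SE) became -0.0071 after centring. Pecam1 (CD31) ran from 2358 to 2721 and from 2591 to 2900, and Ctnna1, the catenin that links cadherins to actin, from 1725 to 1934 and from 1872 to 2091. Of 18 adherens junction genes, 15 were higher as deposited and 8 after centring. Their median log2 change was 0.12, 0.15 and 0.06 in pairs 1 to 3 and -0.03 in pair 4.

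Among transport genes too, 0 passed the test. Cav1, the coat protein of caveolae, measured 1760, 1845, 2050 and 2148 in vehicle and 2096, 2279, 2372 and 1994 with agonist, a log2 change of 0.16 ± 0.10 (SE). The coat proteins Cavin1 and Cavin3 had log2 changes of 0.15 ± 0.07 and 0.14 ± 0.07, and Ehd2, which anchors the caveolar neck, of 0.12 ± 0.07; those of Cavin1 and Ehd2 were -0.0022 and -0.02 after centring. Of 19 genes of caveolae and transcytosis 15 were higher, and 10 after centring. Mfsd2a, the lysolipid carrier that holds transcytosis down in brain endothelium, was low in these cultures, with 36, 30, 52 and 53 in vehicle and 19, 43, 44 and 39 with agonist. Its groups overlapped, with a log2 change of -0.26 ± 0.27.

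Abcb1a (P-glycoprotein), the main drug efflux pump of the barrier, ran from 1173 to 1371 in vehicle and from 1175 to 1433 with agonist, with a log2 change of 0.08 ± 0.08 that became -0.0067 after centring. Abcg2 (BCRP) ran from 1048 to 1149 and from 1148 to 1237, a log2 change of 0.13 ± 0.08, and Abcc3, an organic anion pump, from 73 to 114 and from 83 to 127. Of 11 efflux pumps 7 were higher, and 5 after centring. Slc2a1 (GLUT1), the glucose carrier, measured 1510, 1534, 1670 and 1798 in vehicle and 1776, 1833, 1915 and 1743 with agonist, with a log2 change of 0.16 ± 0.08 that was lost in the fourth pair. Of 21 barrier solute carriers 13 were higher, and 10 after centring. Slc3a2, the heavy chain of amino acid exchangers, ran from 606 to 747 and from 676 to 780, and the monocarboxylate carrier family member Slc16a4 from 170 to 233 and from 190 to 240. Wnt signalling builds this program during brain development, and 14 of 20 genes of it were higher, 11 after centring. Axin2, a direct target of beta-catenin, measured 56, 65, 45 and 61 in vehicle and 51, 35, 30 and 54 with agonist. It was lower in all 4 pairs, with a log2 change of -0.44 ± 0.28, whereas Nkd1, another target, was higher in all 4 (137 to 174 and 149 to 186, log2 change 0.16 ± 0.12).

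**Figure D3:**
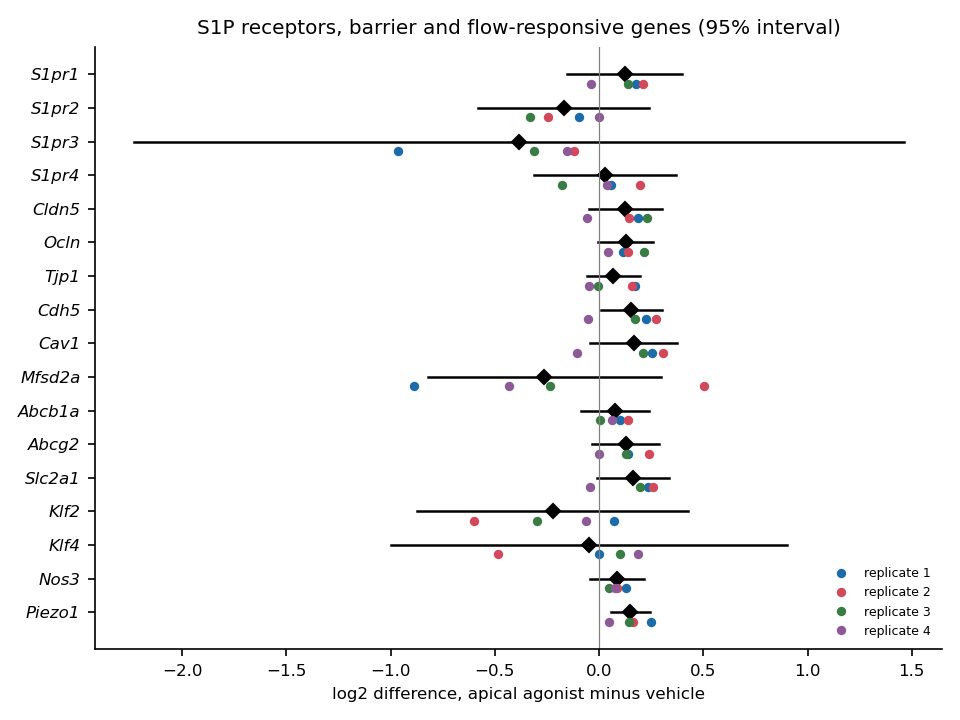
Log2 difference of apical agonist minus vehicle (x axis) for S1P receptors and for genes of the barrier and of the flow response (rows). Black diamonds and lines give the limma estimate and its unadjusted 95% interval, coloured points the difference within each replicate number; S1pr3, Klf2 and Klf4 have the widest intervals, and Piezo1 is the gene farthest from 0 relative to its interval.

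Among genes that respond to flow or set vessel tone, 17 of 25 were higher with agonist and 10 after centring. Klf2 and Klf4, transcription factors induced by laminar flow, varied between replicates far more than between treatments. Klf2 measured 219, 222, 240 and 406 in vehicle and 230, 146, 195 and 389 with agonist, and Klf4 248, 230, 150 and 442 in vehicle and 248, 164, 161 and 503. In both genes and both groups the fourth replicate was the highest, and the log2 changes were -0.22 ± 0.31 and -0.05 ± 0.45 (SE). Nos3, endothelial nitric oxide synthase, was higher in all 4 pairs (1777, 1770, 1746 and 1919 in vehicle, 1944, 1878, 1803 and 2022 with agonist), yet its log2 change of 0.08 ± 0.06 became -0.05 after centring. Ece1, which releases endothelin, and Plxnd1, a plexin that also senses flow, had log2 changes of 0.14 ± 0.07 and 0.11 ± 0.08, which were -0.0039 and -0.03 after centring.

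Targets of YAP, TAZ, MRTF and SRF, the factors that answer to actin tension and stiffness, were higher for 26 of 33 genes as deposited and for 18 after centring. Beside Myh9, the smallest p among them belonged to Actn4, an actin crosslinker (2162 to 2513 in vehicle, 2436 to 2712 with agonist), and Actb, cytoplasmic actin (1187 to 1400 and 1331 to 1569). Of these 33 genes, 20 are in the highest decile by level per base. Basement membrane genes were higher for 17 of 19 members, 16 of which are in the highest decile, and for 9 after centring. Col4a1, the collagen IV chain of vascular basement membranes, measured 4603, 4754, 4883 and 5268 in vehicle and 5486, 5934, 5745 and 4995 with agonist. It was higher in 3 pairs and lower in the fourth, with a log2 change of 0.18 ± 0.07 (SE). Its partner chain Col4a2 had a log2 change of 0.18 ± 0.08, and Col18a1, the precursor of endostatin, of 0.12 ± 0.05, which was -0.01 after centring. Integrins (8 of 15 higher, 3 after centring) and matrix proteases with their inhibitors (12 of 22, 4 after centring) had medians of 0.0073 and 0.0087. Itgb1, Itga3 and Itga5, subunits of collagen, laminin and fibronectin receptors, had log2 changes of 0.13 ± 0.08, 0.14 ± 0.11 and 0.06 ± 0.05, and those of Itgb1 and Itga5 were -0.02 and -0.06 after centring. Mmp2, a gelatinase, was lower in all 4 pairs, at 201 to 254 in vehicle and 180 to 234 with agonist, with a log2 change of -0.13 ± 0.14. Timp2 and Adam15, an inhibitor and a membrane protease, had log2 changes of 0.06 ± 0.06 and 0.07 ± 0.06, which were -0.03 and -0.02 after centring.

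Leukocyte adhesion molecules and chemokines, through which endothelium recruits immune cells, were higher for 16 of 26 genes and for 14 after centring. Vcam1, the receptor for VLA-4, measured 1855, 1795, 2412 and 2139 in vehicle and 2062, 2307, 2722 and 2089 with agonist, and the log2 change was 0.16 ± 0.15 (SE). Csf1, the macrophage growth factor, ran from 1465 to 1770 and from 1598 to 2037, and Rela, the p65 subunit of NF-kB, from 742 to 981 and from 833 to 1020. All 3 had overlapping groups. Antigen presentation genes were higher for 16 of 17 members, and for 9 after centring, with a median log2 change of 0.06 that became 0.0016. B2m, the light chain of class I molecules, ran from 503 to 599 and from 580 to 650. The class I heavy chains H2-D1 and H2-K1 had log2 changes of 0.12 ± 0.07 and 0.10 ± 0.06, which were -0.0020 and -0.02 after centring; heavy chains are near copies of one another, so their counts are uncertain.

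Interferon response genes, which cells switch on against virus, were higher with apical agonist for 28 of 34 genes, with a median log2 change of 0.06. This direction stayed under centring, with 26 of 34 higher and a median of 0.06, and 2 members are in the highest decile by level. The pairs did not move together: the list's median was 0.11 in pair 1, -0.03 in pair 2, -0.11 in pair 3 and 0.28 in pair 4. Without replicate 4 of both groups the median was -0.0014, and without agonist replicate 4 alone it was -0.05. The members with the smallest p were higher in all 4 pairs: Trim25, a ligase that activates RIG-I (829, 760, 709 and 764 in vehicle, 869, 805, 745 and 890 with agonist), Bst2 (tetherin; 294, 330, 363 and 348, then 346, 368, 405 and 353) and Ifi35 (229, 223, 250 and 268, then 240, 255, 284 and 278). Their log2 changes were 0.11 ± 0.07, 0.14 ± 0.09 and 0.12 ± 0.09 (SE). Isg15, a ubiquitin-like effector, and Ifit1, which binds viral RNA, were chosen after their values were seen to show the fourth replicate. Isg15 measured 93, 89, 93 and 137 in vehicle and 100, 105, 99 and 183 with agonist, and Ifit1 142, 127, 122 and 219 in vehicle and 196, 127, 76 and 357 with agonist. In both groups the fourth library was the highest, by more with agonist.

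Lists of vessel growth and patterning differed in direction once the level was accounted for, and Notch and guidance genes were then mostly lower. So were integrins (3 of 15 higher after centring), matrix proteases (4 of 22) and cell cycle genes (9 of 33). The Notch median after centring was only -0.03. As deposited, its library medians spanned -0.05 to 0.02 in vehicle and -0.04 to 0.18 with apical agonist. Over all genes 5879 of 12249 were higher after centring. VEGF and angiopoietin genes were higher for 12 of 17 members and for 9 after centring. Kdr (VEGFR2) measured 2728, 2732, 2658 and 2879 in vehicle and 3047, 2867, 2827 and 2910 with agonist, and was higher in all 4 pairs, but its log2 change of 0.08 ± 0.05 (SE) became -0.02 after centring. Flt4 (VEGFR3) ran from 1402 to 1586 and from 1564 to 1656, and Angptl4, a lipase inhibitor, from 538 to 697 and from 627 to 818. Notch genes were higher for 10 of 16 members and for 3 after centring. The ligand Dll1 measured 192, 176, 76 and 115 in vehicle and 164, 53, 47 and 118 with agonist, a log2 change of -0.65 ± 0.61, and the target Hey2 ran from 35 to 62 and from 24 to 60. The arterial ligand Dll4 had a log2 change of 0.12 ± 0.09, which was -0.0024 after centring. Of 22 genes of the BMP, TGF-beta and Id family 16 were higher, and 13 after centring. Eng and Acvrl1, the endothelial co-receptor and receptor for BMP9, had log2 changes of 0.19 ± 0.10 and 0.14 ± 0.08, and the ligand Bmp6 measured 863, 885, 849 and 960 in vehicle and 1053, 1205, 946 and 911 with agonist. Semaphorins, plexins, ephrins and Robo genes had pair medians of 0.10, -0.07, -0.10 and 0.03 as deposited, so the pairs did not move together. On balance the list was lower, with 11 of 26 higher as deposited and 7 after centring, and a median of -0.05 in both. Robo4, Sema3f and Sema7a, an endothelial guidance receptor and semaphorins, were nevertheless higher, with log2 changes of 0.15 ± 0.08, 0.12 ± 0.06 and 0.11 ± 0.06, that of Sema7a being -0.02 after centring. Endothelial transcription factors were higher for 15 of 22 genes and for 8 after centring. Sox18, which directs endothelial fate, ran from 762 to 825 in vehicle and from 799 to 903 with agonist, with a log2 change that was -0.0025 after centring. Heg1, a receptor that stabilises junctions and stands in this list, ran from 3356 to 4082 and from 3782 to 4557, and Foxo1, a brake on endothelial growth, from 1520 to 1749 and from 1618 to 1825.

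Endothelial markers as a whole were higher for 23 of 24 genes with a median log2 change of 0.13 and for 14 after centring with a median of 0.02, and 21 of them are in the highest decile by level. Ly6e, a surface protein abundant in brain endothelium, measured 1016, 1047, 1018 and 1122 in vehicle and 1186, 1156, 1139 and 1119 with agonist. The median of the list was 0.18, 0.17 and 0.16 in pairs 1 to 3 and -0.0080 in pair 4, the pair in which a read was worth less with agonist. Coagulation and fibrinolysis genes were higher for 16 of 17 members and for 10 after centring. Vwf, the platelet-binding protein stored by endothelium, measured 5782, 5614, 4609 and 5388 in vehicle and 6872, 6319, 5269 and 5265 with agonist. F3, tissue factor, was near the floor and scattered, with 15, 28, 3 and 6 in vehicle and 20, 28, 22 and 12 with agonist, and Anxa2, which gathers plasmin at the surface, ran from 849 to 1049 and from 986 to 1235.

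Genes of protein and energy production kept their direction after centring, although 0 passed the test. All 50 tested genes of cytosolic ribosomal proteins were higher with agonist, with a median log2 change of 0.15, and 49 were higher after centring, with a median of 0.11. The pair medians were 0.19, 0.25 and 0.21 and, in pair 4, -0.03, so that the direction was that of pairs 1 to 3. Rpl4 measured 814, 835, 933 and 948 in vehicle and 957, 1018, 1101 and 928 with agonist, and the log2 changes of Rpl4 and Rpl3 were 0.18 ± 0.08 and 0.12 ± 0.06 (SE). Ribosomal protein genes have many near-identical pseudogenes, so their counts depend on how shared reads were assigned. All 38 nuclear genes of oxidative phosphorylation were higher, with a median of 0.12, and 36 after centring, with a median of 0.06; their pair medians were 0.10, 0.23, 0.18 and -0.05. Ndufa2, a subunit of complex I, ran from 127 to 152 and from 138 to 186, Cox8a of complex IV from 160 to 192 and from 180 to 227, and Atp5b of the ATP synthase from 951 to 1137 and from 1054 to 1288. The same lists were higher against the same vehicle libraries with basal agonist (50 of 50 and 33 of 38) and with apical S1P (49 of 50 and 38 of 38).

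Hypoxia and glycolysis genes were higher for 19 of 23 members and for 16 after centring. Gapdh measured 239, 252, 264 and 282 in vehicle and 280, 325, 308 and 280 with agonist. Epas1 (HIF-2 alpha) ran from 2880 to 3365 and from 3283 to 3610, with a log2 change of 0.15 ± 0.06 (SE). Genes of the integrated and unfolded stress response were higher for 18 of 24 members and for 14 after centring, and the chaperones Hsp90b1 and Calr had log2 changes of 0.09 ± 0.05 and 0.13 ± 0.10, that of Hsp90b1 being -0.0093 after centring. Immediate early genes, induced within an hour by serum or receptor signals, were higher for 14 of 21 members and for 10 after centring. Dusp1 ran from 472 to 727 in vehicle and from 558 to 809 with agonist, Junb from 347 to 503 and from 421 to 504, and Ier2 from 323 to 402 and from 363 to 420.

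Cholesterol synthesis genes were higher for 15 of 23 members, with a median log2 change of 0.03. The pair medians were -0.0026, 0.34, -0.13 and -0.05, so that pair 2 alone was higher. The median was -0.034 without agonist replicate 2, -0.011 without agonist replicate 4, -0.0071 without vehicle replicate 1 and -0.0032 without vehicle replicate 2. Msmo1, a sterol oxidase of the pathway, measured 547, 543, 632 and 637 in vehicle and 546, 736, 612 and 639 with agonist. Its second agonist replicate was the highest of the 8 values. Cell cycle genes were lower for 18 of 33 members with a median of -0.02. That median was 0.06 without vehicle replicate 1, without vehicle replicate 2 or without agonist replicate 4, and 0.07 without agonist replicate 3. Pcna, the replication clamp, ran from 308 to 344 in vehicle and from 327 to 382 with agonist, Ccnd1 (cyclin D1) from 1879 to 2260 and from 2132 to 2635, and the helicase subunit Mcm6 from 931 to 1017 and from 975 to 1086. The log2 change of Mcm6, 0.07 ± 0.05 (SE), was -0.01 after centring.

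**Figure D4:**
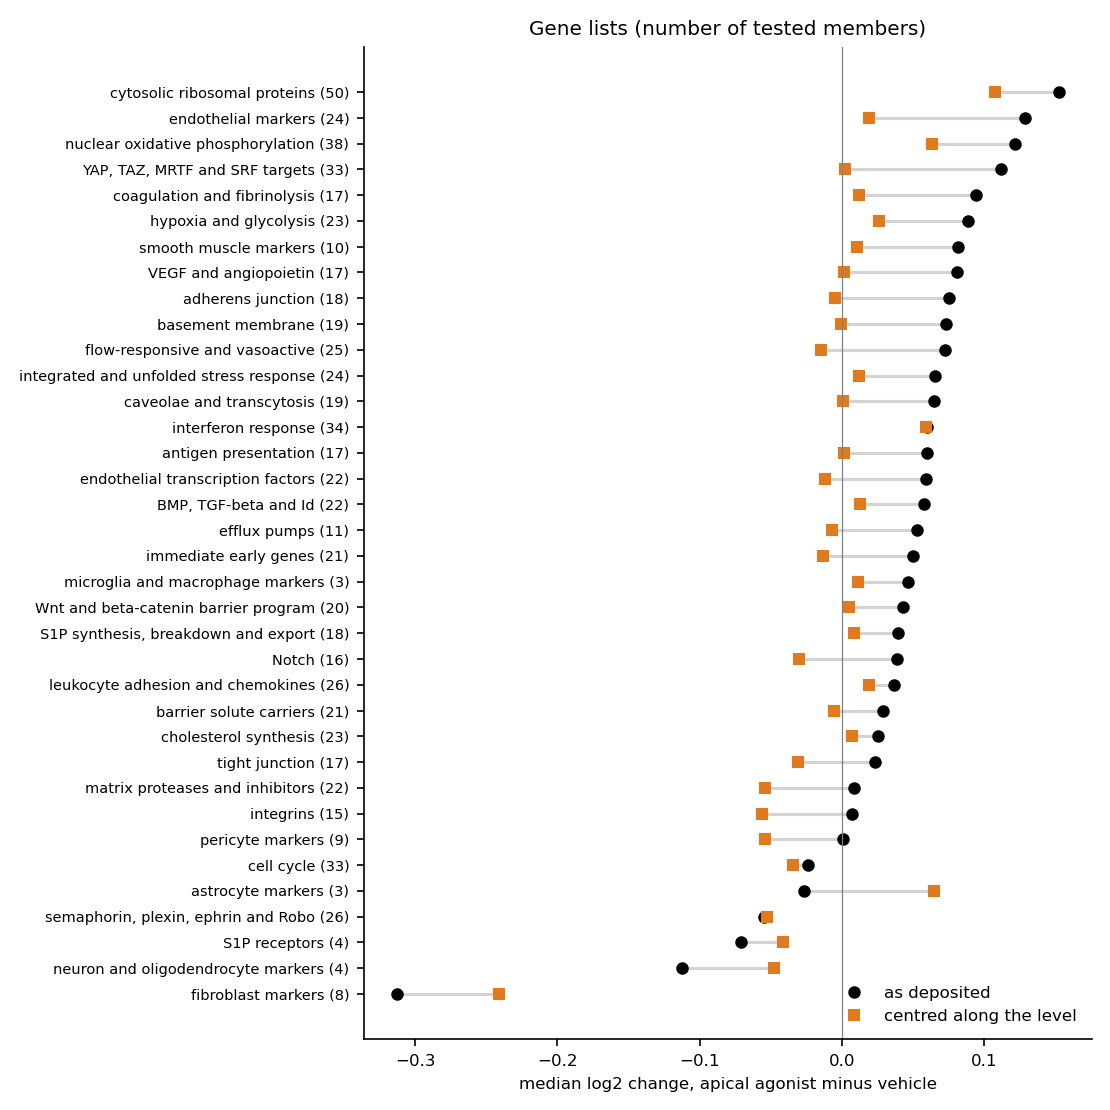
Median log2 change of apical agonist minus vehicle (x axis) over the tested members of each gene list (rows, number of members in parentheses), as deposited (black) and after centring along the level per exonic base (orange). With centring, endothelial markers go from 0.13 to 0.02, ribosomal proteins from 0.15 to 0.11 and fibroblast markers from -0.31 to -0.24, and the interferon list is at 0.06 in both.

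Markers of other cell types gave no change that held across libraries. Fibroblast markers were lower for 7 of 8 members with a median log2 change of -0.31, but the pair medians were 0.00080, -0.08, -0.84 and 0.10, and the median ran from -0.78 to 0.24 when single replicates were left out. Pericyte markers were higher for 5 of 9 members and smooth muscle markers for 7 of 10. Astrocyte markers summed to 605 to 763 in vehicle and 589 to 760 with agonist. The sums were 607 to 799 and 575 to 753 for neuron and oligodendrocyte markers, and 498 to 595 and 514 to 629 for microglia and macrophage markers. Single members differed: the table lists no Olig2, Sox10 or P2ry12, and the astrocyte genes Gfap and Aqp4 were at 5 or less in all 8 libraries. The microglia genes C1qb and C1qc stood at 3 to 16 in replicates 1 and 2 of both groups and at 0 in replicates 3 and 4.

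The side of treatment was compared directly at the same dose. Between apical and basal agonist, 0 of 12249 genes passed (0% called, smallest adjusted p 0.9999), with 61 at an unadjusted p under 0.05 (23 higher, 38 lower with apical) and 183 with the replicate block. The smallest p belonged to 1700086O06Rik, a long non-coding RNA at 6.5 ± 3 normalized counts with apical and 18.3 ± 5.12 with basal agonist (mean ± SD, n = 4 each), a log2 difference of -1.42 ± 0.32 (SE). Arhgap27os1, an antisense transcript, stood at 13.8 ± 2.06 and 21.8 ± 2.63, and the imprinted gene Peg10 at 15 ± 7.44 and 27 ± 5.83. The strand setting of the counting is not given, so reads of Arhgap27os1 and of its partner gene cannot be told apart. For S1pr4 the difference of apical minus basal agonist was 0.11 ± 0.16, and for Piezo1 0.06 ± 0.05.

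Interferon response genes were higher with apical than with basal agonist for 33 of 34 genes, with a median log2 difference of 0.12, and for 31 after centring. By pair the median was 0.14, -0.11, -0.0091 and 0.41, so that pairs 1 and 4 carried it. Measured as a median over the list against the vehicle mean, the 4 apical agonist libraries spanned -0.27 to 0.41, the basal agonist libraries -0.27 to 0.03, the apical S1P libraries -0.34 to -0.03 and the vehicle libraries -0.18 to 0.15. The apical agonist group thus covered the whole vehicle range. Cholesterol synthesis genes were higher on the apical side for 21 of 23 members, with pair medians of -0.05, 0.37, -0.0067 and -0.02. Cell cycle genes were higher on the apical side for 6 of 33 members, with a median of -0.06 and negative pair medians in all 4 pairs (-0.0071, -0.14, -0.02 and -0.12). Over all genes 6091 of 12249 were higher with apical agonist.

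**Figure D5:**
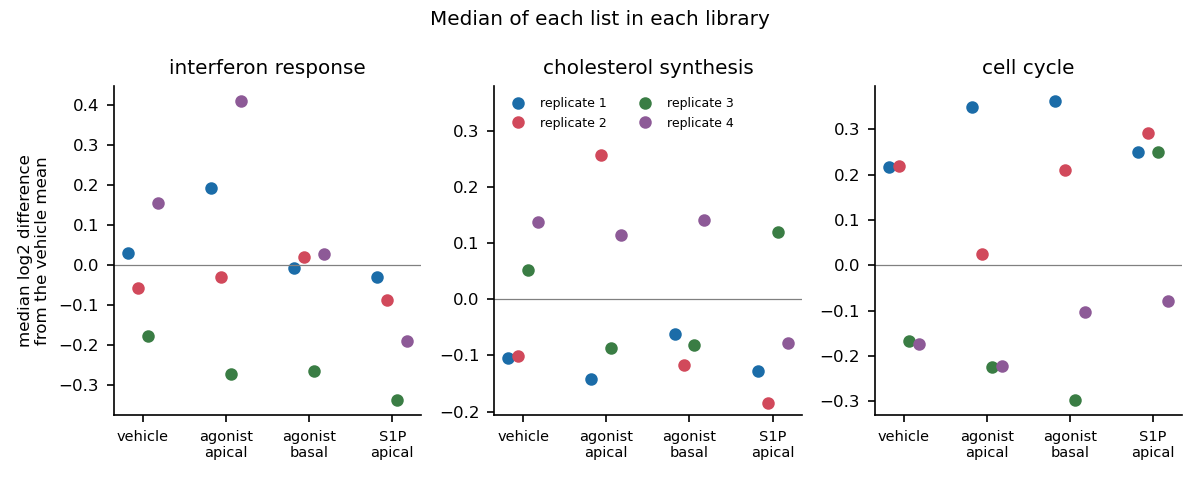
Median over the members of 3 gene lists of log2(value + 1) minus the mean of the 4 vehicle libraries (y axis), for each library of 4 groups (x axis) with the replicate number as colour. The apical agonist libraries spread from -0.27 to 0.41 in the interferon list, and in the cell cycle list replicates 1 and 2 of vehicle lie above replicates 3 and 4.

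Against apical S1P the ligand and the dose both differ, 500 nM of an agonist of 1 receptor and 50 nM of a ligand of the whole family, so that neither can be told apart from the other. The direct test gave 0 of 12249 genes (0% called, smallest adjusted p 0.9999), with 101 at an unadjusted p under 0.05 and 529 with the replicate block. The numbers paired these groups less clearly: same-numbered libraries correlated at 0.69, 0.14, 0.40 and 0.17 in their deviations from the group means, and agonist replicates 2 and 3 correlated better with an apical S1P library of another number (0.19 and 0.70). Gpt2, a mitochondrial alanine transaminase, had the smallest p, with 79.3 ± 10.4 normalized counts under apical agonist and 56.5 ± 6.03 under apical S1P (mean ± SD, n = 4 each), a log2 difference of 0.48 ± 0.13 (SE). Gins2, of the replicative helicase complex, stood at 165 ± 12.2 and 207 ± 33.0, and the long non-coding RNA Gm36371 at 11 ± 1.63 and 18 ± 1.83. For Cldn5 the difference was 0.08 ± 0.08 and for Piezo1 0.09 ± 0.05.

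The 6 genes that had been lower with basal S1P in earlier results of these libraries were looked up with apical agonist, and since they were chosen on these samples they are a description only. Atoh8, a transcription factor, measured 301, 236, 248 and 232 in vehicle and 320, 262, 249 and 203 with agonist. Cpm, a membrane carboxypeptidase, ran from 545 to 614 and from 542 to 590, Ackr4, a scavenging chemokine receptor, from 92 to 153 and from 108 to 161, and Trpm6, a magnesium channel, from 735 to 786 and from 708 to 972. Casz1, a zinc finger factor, ran from 97 to 149 and from 90 to 146, and Nuak1, a kinase, from 442 to 477 and from 407 to 501. All 6 had overlapping groups, and their log2 changes lay between -0.11 and 0.07.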

How the data were processed

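The members and gene lists were chosen with earlier results of these data known. The authors deposited one table of wild-type libraries whose values are a signal per gene, called normalized counts here: read counts scaled by a library factor, then rounded, as inferred from the values. Per the submitters' processing notes, FastQC, Trimmomatic 0.38, STAR 2.7.3a, featureCounts 1.6.5 (Subread), DESeq2 1.26.0 and mm10 were used; no source used here gives their roles, the strand setting or the handling of duplicates. Since whole reads could not be read back from the rounded values, count models were not used. From the spacing of values, 4.00 to 5.54 M reads per library were estimated.

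Of 18091 genes, 12249 passed a minimum mean of 10 across the 20 wild-type columns and were fitted as log2(value + 1) with limma 3.58.1 (R 4.3.3): group means over all 5 wild-type groups, a mean-dependent prior variance, and Benjamini-Hochberg adjustment with calls under 0.05. The log2(value + 1) scale understates changes of low genes. Exon lengths and coordinates came from GENCODE M21 (mm10), whose starts and ends matched 99.1% of the table's genes. Centring used a lowess curve per library along the mean level of the 20 wild-type libraries per exonic base, whereas the deciles used the vehicle level. The fit was tested on simulated data.

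Replicate numbers were taken to pair the libraries: deviations from the group means correlated at 0.78, 0.43, 0.77 and 0.67 (12249 genes) for same-numbered agonist and vehicle libraries, above the required 0.1 for each, and at 0.42 to 0.74 for apical and basal agonist, although no label says that a number marks a shared pool. Each agonist library correlated best with the vehicle library of its number. Vehicle replicate 2, however, correlated better with agonist replicate 1 (0.589) than with agonist replicate 2 (0.428), so pair 2 is the least certain. Genes named are the S1P receptors, the 8 with the smallest p per direction, the 5 with the largest change per direction among non-overlapping genes with a mean of at least 50, the 3 smallest p per list with 13 defining barrier and flow genes, the genes lower with basal S1P, and the 3 smallest p of each direct contrast. Alternatives were the block, other filters, pseudocounts, scalings and weights, and leaving out replicates. Some results that the naming rule would give are not reported here.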

Additional observations from a re-analysis of the deposited data

Results flagged for a closer look

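In 288 groups of 4 libraries looked at (named genes and sums of cell type markers), 9 (3.12%) had 1 library far from the other 3, where chance alone gives about 1 in 20. Vehicle replicate 4 stood apart for Adgra2 (2663, the others 2467 to 2496), Sema7a (1506, the others 1367 to 1381), Klf2 (406, the others 219 to 240) and Isg15 (137, the others 89 to 93). Agonist replicate 4 stood apart for Isg15 (183, the others 99 to 105) and Zfp940 (32, the others 18 to 20). Vehicle replicate 3 was low for Flt4 (1402, the others 1562 to 1586), and Gm29257 was flagged on a difference of 1 normalized count (vehicle replicate 1 at 11, the others at 10). The lymphocyte and leukocyte markers summed to 16 in agonist replicate 1, with 5 to 6 in the other agonist libraries.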

How the results depend on the processing

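Apical agonist against vehicle gave 0 called genes in all 25 alternatives run, with smallest adjusted p-values from 0.360 (limma with array weights) to 1, and both direct contrasts gave 0 in all of theirs. The replicate block changed no call. The number of genes at an unadjusted p under 0.05 was 134; it was 429 with the replicate block, 1234 with the replicate block on only the 8 libraries, 330 with no filter on the mean, 72 with quantile normalization, 1576 with array weights, 39 without both replicates numbered 2, 216 with the replicate block and no agonist replicate 2, and 64 (without vehicle replicate 2) to 271 (without agonist replicate 4) with 1 replicate left out. Among alternatives added after the data were seen it was 72 with centring along the level, 209 with that and the replicate block, and 243 without both replicates numbered 4. Of the list medians refitted, 875 stayed within the spread between replicates and 100 moved by more. The basement membrane median was -0.01 with quantile normalization.

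Of 136 named genes refitted, 0 were called in any alternative and 37 had the other sign of log2 change in at least 1. With centring along the level, with or without the replicate block, 25 turned: Col18a1 -0.011, Sox18 -0.0025, Cdh5 -0.0071, Cavin1 -0.0022, Ece1 -0.0039, Hsp90b1 -0.0093, Ehd2 -0.022, Itgb1 -0.017, Sema7a -0.021, Kdr -0.021, H2-D1 -0.0020, H2-K1 -0.016, Cldn5 -0.031, Plxnd1 -0.028, Nos3 -0.047, Mcm6 -0.010, Dll4 -0.0024, Tjp1 -0.048, Timp2 -0.034, Itga5 -0.064, Adam15 -0.016, Abcb1a -0.0067, S1pr1 -0.014, Atoh8 -0.0033 and Cpm -0.0062. The other named genes kept their sign with centring, and for most of them the centred size is not given here. Quantile normalization turned Kdr (-0.0053), Tjp1 (-0.043), Itga5 (-0.011) and Cpm (-0.0011), equal totals Atoh8 (-0.0069), Ackr4 (-0.0033) and Cpm (-0.015), and array weights Mfsd2a (0.054) and Ackr4 (-0.13). Without both replicates numbered 2, Msmo1 was -0.015, Trpm6 -0.0032, S1pr4 -0.029, Klf4 0.10, Atoh8 -0.033 and Cpm -0.0064; with the replicate block and no agonist replicate 2, Trpm6 was -0.026, S1pr4 -0.021, Klf4 0.060 and Atoh8 -0.0016. Without both replicates numbered 4, Gpt2 was -0.0060 and Ifit1 -0.071. With 1 replicate left out, 12 genes spanned 0: Ackr4 -0.14 to 0.11, Atoh8 -0.10 to 0.12, Casz1 -0.22 to 0.0095, Cpm -0.015 to 0.043, Ifit1 -0.26 to 0.48, Isg15 -0.00073 to 0.35, Klf4 -0.40 to 0.23, Mfsd2a -0.42 to 0.013, Nuak1 -0.093 to 0.0068, S1pr3 -0.97 to 0.11, S1pr4 -0.042 to 0.14 and Trpm6 -0.016 to 0.14. The causes were not tested. At the median standard error of 0.13, or 0.10 with the block, changes of the size given here cannot be told from the spread between 4 libraries a group.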

Other observations

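After centring along the level per exonic base and with the replicate block, a combination chosen after the data were seen, the smallest p-values belonged to genes that the ranking above partly left out, and 0 were called (limma, smallest adjusted p 0.999; 108 genes higher and 101 lower at an unadjusted p under 0.05). Cebpb, a transcription factor of inflammatory and stress responses, measured 44, 31, 51 and 29 in vehicle and 65, 54, 56 and 41 with apical agonist. It was higher in all 4 pairs with overlapping groups, at a log2 change of 0.54 ± 0.16 (SE) in that fit and 0.49 ± 0.19 as deposited. Mcoln1, a cation channel of lysosomes, was also higher in all 4 pairs (415, 447, 413 and 396, then 467, 475, 451 and 433). Ttll7, an enzyme that adds glutamate chains to microtubules, was lower in all 4 pairs, at 585, 564, 606 and 652 in vehicle and 454, 471, 506 and 587 with agonist, a log2 change of -0.26 ± 0.10 as deposited. Against the same vehicle libraries its change was -0.22 with apical S1P and -0.11 with basal agonist. Fam161b, a low-level gene of centrioles, measured 22, 14, 7 and 10 in vehicle and 28, 19, 22 and 21 with agonist.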
